A study of Mus musculus with 2 samples.

Results

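The 10 genes described here encode histone variants, which take the place of the canonical, replication-coupled histones in some chromatin: H2afz, H2afv, H2afx, H2afj, H2afy and H2afy2 of the H2A family, H3f3a, H3f3b and Cenpa of the H3 family, and the linker histone gene H1f0. They were taken by name, by matching the gene identifiers of the deposited table to mouse symbols, and all 10 were found among the 19720 genes listed. Transcripts were sequenced from embryonic mouse forebrain of 2 genotypes, both on a C57BL/6 background: H2AZfl/fl, in which the H2A.Z alleles are flanked by loxP sites and which serves as the control, and H2AZcKO, the conditional knockout. Titles give embryonic day 16 and a stage field gives day 12, so the age is uncertain. The tissue is given as telencephalic, and the dissected part as cerebral cortex. The Cre driver, the cells in which it acts and the exons that it removes were not given in the sources used here. The design text speaks of triplicates, but there is 1 count column for each genotype, so 1 knockout library is set against 1 control library throughout, with no replicate check. The count columns summed to 8474545 reads for the control and 9028523 for the knockout.

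Histone variants differ from canonical histones in sequence and in when they are made: their genes carry introns or are transcribed outside S phase, and dedicated chaperones and remodelling complexes place the proteins. H2A.Z marks promoters and enhancers and is deposited by the SRCAP and TIP60 complexes, H3.3 is placed at active genes by HIRA and at repeats by DAXX and ATRX, and CENP-A defines the centromere. H2A.X is phosphorylated at DNA breaks, macroH2A carries a large non-histone domain and is enriched on silent chromatin, and the linker histone H1.0 accumulates in cells that leave the cycle. In neural tissue H2A.Z and H3.3 are studied for their part in progenitor and neuronal gene expression.

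Both members of a gene pair can encode the same or nearly the same histone, so the reads of the pair can be told apart only through the bases that differ. The first 120 coding bases of each pair are shown because this separation decides what the read counts of H2afz and H3f3a measure. They were taken from GENCODE M21 transcripts (GRCm38), and capitals mark the bases at which H2afz differs from H2afv, or H3f3a from H3f3b. Gm8203, a processed pseudogene, is written with the capitals of H2afz.
H2afz: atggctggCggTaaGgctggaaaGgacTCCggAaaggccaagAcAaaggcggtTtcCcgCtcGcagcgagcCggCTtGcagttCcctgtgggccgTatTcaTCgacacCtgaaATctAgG
Gm8203: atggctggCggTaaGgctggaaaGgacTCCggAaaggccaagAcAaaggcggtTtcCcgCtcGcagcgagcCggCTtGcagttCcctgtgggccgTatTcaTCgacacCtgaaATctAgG
H2afv: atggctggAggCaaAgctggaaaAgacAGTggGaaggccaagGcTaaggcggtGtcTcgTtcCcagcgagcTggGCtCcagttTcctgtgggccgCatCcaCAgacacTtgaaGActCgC
H3f3a: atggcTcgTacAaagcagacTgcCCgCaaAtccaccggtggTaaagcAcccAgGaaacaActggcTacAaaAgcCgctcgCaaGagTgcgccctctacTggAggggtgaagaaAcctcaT
H3f3b: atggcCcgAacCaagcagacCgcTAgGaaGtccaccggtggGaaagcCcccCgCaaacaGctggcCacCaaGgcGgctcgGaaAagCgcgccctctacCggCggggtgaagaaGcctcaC
H2afz and H2afv, which encode the H2A.Z.1 and H2A.Z.2 proteins, differed at 80 of 384 coding bases (79.2% identity, stop codon left out), and the longest run without a difference was 14 bases. H3f3a and H3f3b, which encode the same H3.3 protein, differed at 95 of 408 coding bases (76.7% identity), with a longest identical run of 23 bases. Of these differences, 69 of 80 and 81 of 95 fell on the last base of a codon. Reads of either pair can therefore be assigned to one gene of the pair by sequence. The pseudogene is a different case: its 387 bases had 0 differences from the H2afz coding sequence with its stop codon.

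The targeted gene H2afz, which encodes H2A.Z.1, was lower in the knockout library. It lies on the plus strand of chromosome 3, from 137864487 to 137866922 in the coordinates of the deposited table, which match GRCm38, and its longest coding transcript has 5 exons. H2afz had 1152 control reads and 535 knockout reads, or 134.3 and 59.98 CPM, the depth-scaled read count, after scaling by the trimmed mean of M values (TMM). The knockout library is the lower of the pair, and the exact 95% counting intervals of the levels do not overlap. The knockout level was 44.7% of the control level (exact 95% interval 40.2% to 49.5%), a log2 ratio of -1.16 (-1.31 to -1.01). Each such interval is a Clopper-Pearson interval for how a gene's reads divide between the libraries, and takes in counting error alone. In the authors' deposited table H2afz is marked significant, with a control-to-knockout fold of 2.29 and an adjusted p of 1.33e-57 from an unnamed test that compares these libraries, not the genotypes.

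H2afv, which encodes H2A.Z.2, was close to level. It had 1009 control reads and 1095 knockout reads, or 117.6 and 122.8 CPM, and a log2 ratio of 0.06 (-0.06 to 0.19). The interval spans a ratio of 1, and its upper end corresponds to 113.8% of the control level. The H2afz level was 74.3 CPM lower in the knockout library, and the H2afv level was 5.12 CPM higher, which is 6.89% of the H2afz difference. Both genes together, at 2161 and 1630 reads, gave a log2 ratio of -0.46 (-0.56 to -0.37). These values weight the genes by reads: divided by the number of 50-base windows of each transcript that occur in no other annotated gene, a scale added after seeing the data and described further on, the H2afv difference was 1.35% of the H2afz difference and the ratio of both genes together was -0.91. Within the pair, H2afz held 53.3% of the reads in the control (51.2% to 55.4%) and 32.8% in the knockout (30.5% to 35.2%), so that by reads H2afz was the larger part in the control library and H2afv in the knockout library. Per unshared window H2afz was instead the larger part in both, with 85.4% in the control and 71.4% in the knockout. This split is taken within a library and does not depend on the scaling between libraries. Per kilobase of exon the order within the pair was less clear in the control, with 51.2% for H2afz, and the same in the knockout, with 31.0%.

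**Figure D1:**
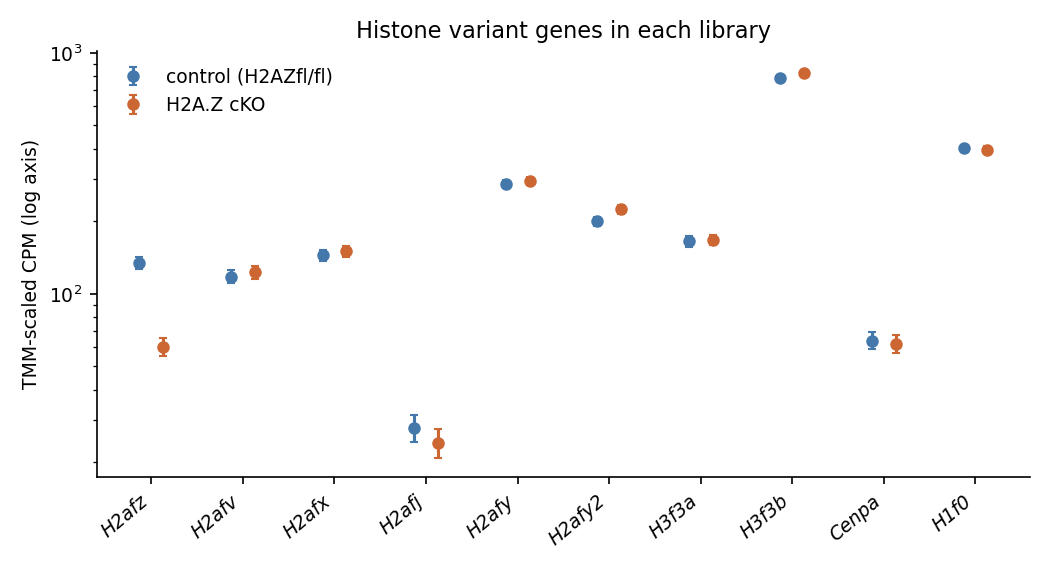
TMM-scaled CPM of the 10 histone variant genes (vertical log axis) in the control library (blue) and the knockout library (orange), with exact 95% Poisson intervals that cover counting error only. H2afz is at 134.3 and 59.98 CPM, and the other 9 pairs of points lie close together.

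H2afx, whose protein H2A.X is phosphorylated around DNA breaks, had 1238 control reads and 1340 knockout reads, 144.3 and 150.2 CPM. Its log2 ratio was 0.06 (-0.05 to 0.17), so no difference was detectable at this depth. H2afj, which encodes H2A.J, an H2A variant known to accumulate in senescent cells, had the fewest reads of the 10, with 237 and 214. H2afj was at 27.6 and 24.0 CPM, a log2 ratio of -0.20 (-0.48 to 0.07), the furthest from 0 after H2afz and the one with the widest interval. A 1.5-fold difference in H2afj lies outside that interval, whereas a difference of 1.39-fold lies within it.

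The macroH2A genes were level or slightly higher in the knockout library. H2afy, which encodes macroH2A1, had 2450 and 2623 reads, 285.6 and 294.1 CPM, a log2 ratio of 0.04 (-0.04 to 0.12). H2afy2, which encodes macroH2A2, had 1713 and 2005 reads, 199.7 and 224.8 CPM. The H2afy2 log2 ratio of 0.17 (0.08 to 0.26), or 1.13-fold, was higher beyond counting error. It lay within the central 90% (-0.10 to 0.24) of 534 other genes whose summed reads were within 1.2-fold, of which 475 had lower ratios. In the authors' deposited table the adjusted p of H2afy2 is 0.0524, and the gene is not marked significant. H2afy held 58.9% of the macroH2A reads in the control (57.3% to 60.4%) and 56.7% in the knockout (55.2% to 58.1%). These intervals overlap in part, which does not show that the shares are the same, and their difference was not tested.

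Of the H3.3 genes, H3f3b had most of the reads in both libraries. H3f3b had 6775 control reads and 7396 knockout reads, 789.9 and 829.1 CPM, and its ratio on the log2 scale was 0.07 (0.02 to 0.12). For H3f3a 1417 and 1493 reads gave 165.2 and 167.4 CPM and a log2 ratio of 0.02 (-0.09 to 0.12). The small difference in H3f3b was beyond counting error under TMM scaling but not when scaled by the total of reads in genes, where its log2 ratio was 0.0352 (-0.0126 to 0.0829). Under TMM it also lay within the central 90% (-0.10 to 0.20) of 63 other genes with summed reads within 1.2-fold, of which 29 had lower ratios. H3f3a held 17.3% of H3.3 reads in the control (16.5% to 18.1%) and 16.8% in the knockout (16.02% to 17.6%), with overlapping intervals and no test of the difference. In contrast to the H2A.Z pair, the split within the H3.3 pair was thus close in both libraries.

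Cenpa, which encodes the centromeric H3 variant and is made mainly in dividing cells, had 549 and 553 reads, 64.0 and 62.0 CPM. Its log2 ratio was -0.05 (-0.22 to 0.13). H1f0, the linker histone gene, had 3456 and 3543 reads, 402.9 and 397.2 CPM, and a log2 ratio of -0.02 (-0.09 to 0.05). Neither difference was detectable at this depth. The signs of the smallest ratios depended on the scaling: over the alternatives H1f0 ran from -0.0555 to 0.0027 and H3f3a from -0.0160 to 0.0422, whereas H2afv, H2afx, H2afy, H2afy2 and H3f3b stayed above 0 and Cenpa, H2afj and H2afz below it.

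**Figure D2:**
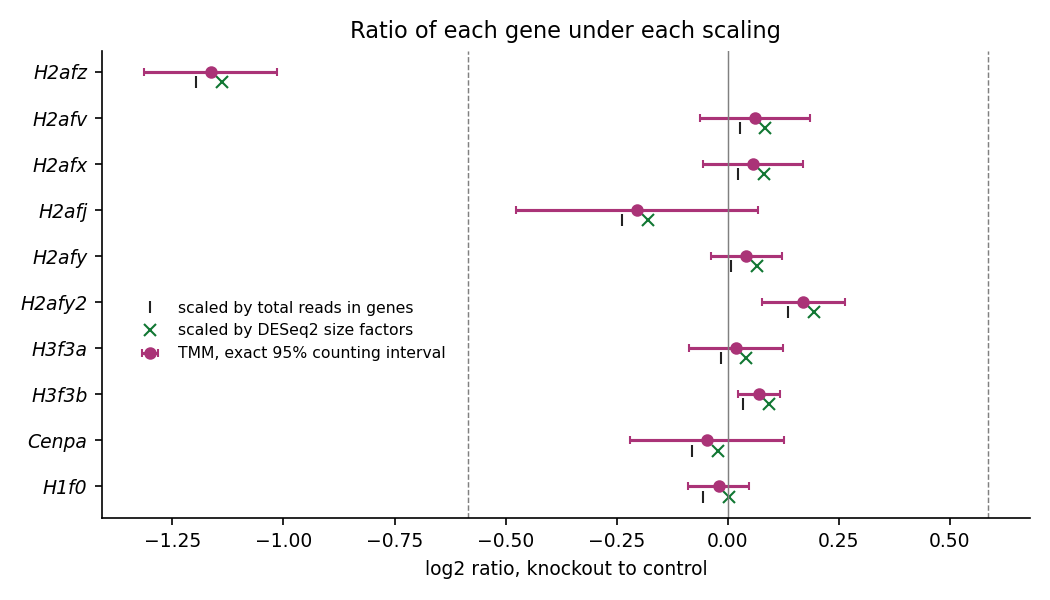
Log2 ratio of knockout to control for each histone variant gene (horizontal axis), with TMM scaling and exact 95% counting intervals (points and bars), with scaling by total reads in genes (vertical ticks) and with DESeq2 size factors (crosses). Dashed lines mark 1.5-fold; H2afz, at -1.16, is the single gene past one of them.

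Read against all genes, H2afz stood apart and the other members did not. All 10 members and 14366 genes in total reached a sum of 20 reads over the libraries and are called measured. A gene is called apart where its level differed by 1.5-fold or more. Of the 10 members, 1 was apart, beside 8.95% of all measured genes, and this 1 was lower, as 5.43% of all measured genes were, while 0 were apart and higher, beside 3.52%. At any fold, 3 of 10 members were beyond counting error, H2afz lower and H2afy2 and H3f3b higher, beside 21.8% of all measured genes. By direction this is 1 lower beside 9.3% and 2 higher beside 12.5%, so these counts are near the background. That background is not matched for depth: it takes in genes from 20 reads up, whereas each member had at least 451. The other 9 members had log2 ratios from -0.20 to 0.17 with a median of 0.04, and the median of all measured genes was 0.0018. Of the listed genes 1.61% are marked significant in the authors' deposited table, and H2afz is the single member among them, the other adjusted p-values running from 0.0524 to 0.934.

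Among genes of like depth the ratio of H2afz was near the low end. Of 1159 other measured genes whose summed reads lay within 1.2-fold of its 1687, the central 90% had log2 ratios between -0.16 and 0.25, and 1 was lower than H2afz. That gene was Igf2, which encodes a growth factor made by choroid plexus, vessels and meninges, with 1284 and 399 reads. Among 7211 other genes that carry a symbol and reach 500 reads over both libraries, 5 were lower than H2afz. They were Ttr, the transthyretin gene of the choroid plexus, the fibrillar collagen genes Col3a1 and Col1a2, the sulfatase gene Sulf1, and Igf2, with log2 ratios of -8.97, -3.76, -3.73, -1.80 and -1.74. These 5 genes were singled out after their values were seen.

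Over 2 libraries the pattern of a gene is its ratio alone, and by distance in log2 ratio the 5 genes most like H2afz at that read minimum all lay closer to level than it. Cxcl12, a chemokine gene, was nearest, with 418 and 207 reads and a ratio of -1.07 (-1.32 to -0.83). Next came Eif2s2, a translation initiation factor gene, with 917 and 474 reads and a ratio of -1.01 (-1.17 to -0.85). The intervals of Cxcl12 and Eif2s2 include the H2afz value. Raly, an RNA-binding protein gene, the amino acid transporter gene Slc6a15 and the basement membrane gene Nid2 followed at -0.91, -0.81 and -0.79. Eif2s2 and Raly both lie on chromosome 2, and Cxcl12, Slc6a15 and Nid2 on chromosomes 6, 10 and 14.

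**Figure D3:**
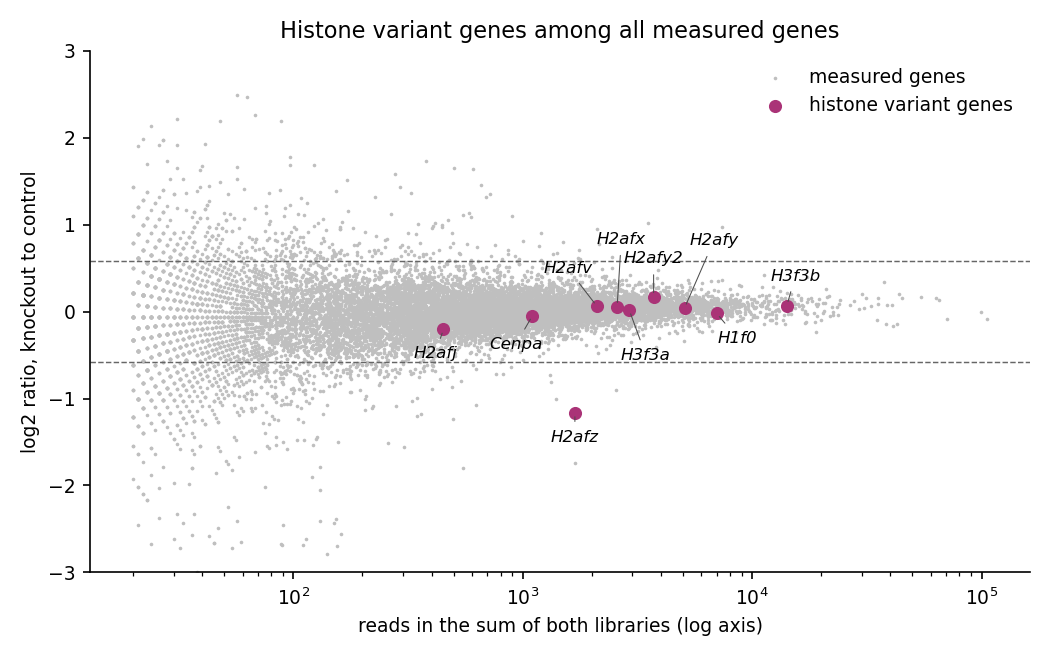
Log2 ratio of knockout to control (vertical axis) against reads in the sum of both libraries (horizontal log axis) for measured genes (grey) and the 10 histone variant genes (purple); dashed lines mark 1.5-fold, and 64 measured genes lie beyond the plotted range of 3 on either side. H2afz, with 1687 reads, lies below nearly all genes of like depth, and the other 9 lie within the body of the cloud.

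Levels of different genes were compared as RPKM, here the TMM-scaled CPM divided by the length in kilobases of the gene model, the union of its annotated exons. On this scale the control levels ran from 10.9 for Cenpa to 265.4 for H3f3b, a range of 24.3-fold. In the control library the order from the highest was H3f3b, H1f0, H2afx, H2afy2, H2afz, H2afv, H3f3a, H2afy, H2afj and Cenpa. H2afz at 75.6 and H2afv at 72.0 were neighbours in this order whose exact 95% Poisson intervals overlap. In the knockout library H2afz, at 33.8, moved from rank 5 to rank 8, below H2afv at 75.2, H3f3a at 47.8 and H2afy at 43.2, and the order of the other 9 genes was the same. Overlapping neighbours in the knockout were H2afx at 108.5 and H2afy2 at 103.3, and H2afj at 13.1 and Cenpa at 10.6.

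The order depends on the length used, because the exon unions of H2afy and Cenpa (6.809 and 5.86 kb) are several times their longest coding transcripts (2.046 and 1.466 kb). Per kilobase of the longest coding transcript, a scale added after seeing the data, H2afz was at 125.6 in the control and 56.1 in the knockout, at ranks 4 and 8. H2afy was then at rank 3 in both libraries, at 139.6 and 143.7, and Cenpa was at 43.7 and 42.3, above H2afj. H3f3b and H1f0 were the highest pair, and H2afz was the member that changed rank by more than 1, on both scales.

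The reads that can be assigned to H2afz are limited by copies of its sequence. No read length was given in the sources used here. Each member's longest coding transcript was therefore split into overlapping windows of 50 bases, and each window was looked up on either strand in the GENCODE M21 transcripts of all other genes. For H2afz 710 of 1020 windows (69.6%) were also found in another gene, more than for any other member. All 384 windows centred in its coding sequence were shared, with 67 of 182 in the 5' UTR and 259 of 454 in the 3' UTR, so its 310 unshared windows lie outside the coding sequence. Windows were shared with 6 other genes. Gm8203 lies on chromosome 6 from 116173737 to 116174123 within Tmcc1, a gene of the opposite strand, and a retained-intron transcript of Tmcc1 held 620 of the windows in reverse, the whole coding sequence included.

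Tmcc1, which encodes an endoplasmic reticulum membrane protein, had 888 control reads and 965 knockout reads, and so did not share the low ratio of H2afz. Gm26623, a long noncoding RNA gene that shared 222 windows, had 3 and 1 reads. Gm8203 has no row in the table analysed here. The labels do not state whether reads with several matches were dropped, split or counted. The scale per unshared window, used above for the H2A.Z pair, stands for the case in which such reads were dropped. The share of H2afz was lower in the knockout on every scale. That much is fixed by the counts, because each scale divides a gene's reads by the same length in both libraries. Which gene of the pair was the larger part in the knockout depended on the length used.

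Of the other members, H3f3a came next, with 30.3% of windows shared, and 357 of 408 in its coding sequence. Over all coding transcripts of H3f3a, 42 other genes shared windows with it. These included the H3f3a pseudogenes H3f3a-ps1 and H3f3a-ps2, with at most 6 reads, and Gm17275, a long noncoding RNA gene that overlaps H3f3a on the opposite strand and had 98 and 104 reads. The sharing gene with the most reads was Smpd4, a sphingomyelinase gene, which held 39 of the windows and had 781 and 769 reads. H2afx and H2afj shared 9.66% and 7.18% of windows, in the coding sequence alone, with canonical H2A genes among others. H2afy2 shared 15.4%, in part with its overlapping neighbour Aifm2, and H3f3b 8.40%. For H2afv and Cenpa 0 windows were shared. The labels do not state a strand setting for the counting, so reads of a member and of a gene that overlaps it on the opposite strand cannot be told apart.

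**Figure D4:**
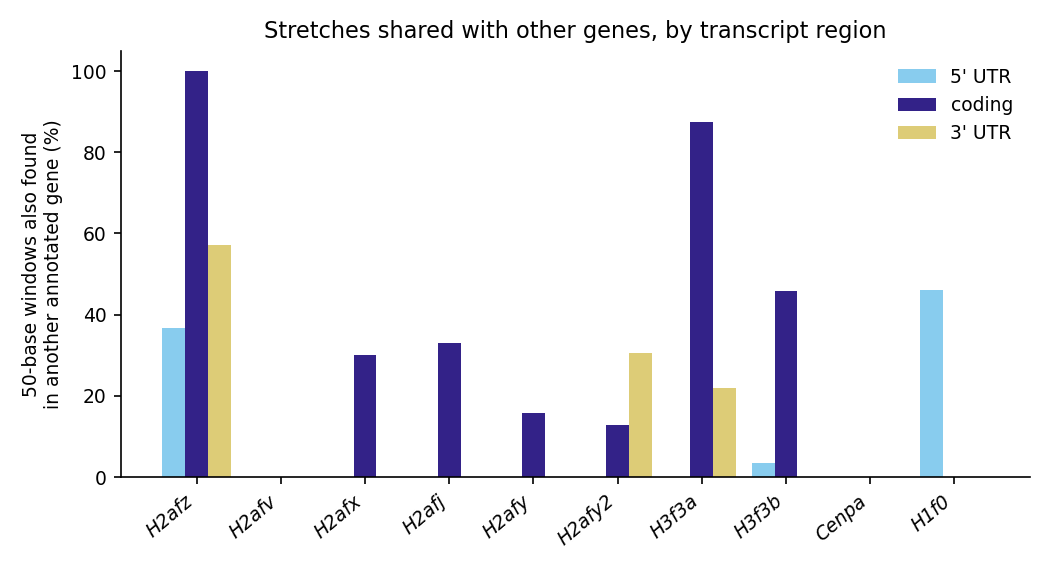
Percent of 50-base windows of each histone variant transcript that occur in the annotated transcripts of another gene (vertical axis), for windows centred in the 5' UTR, the coding sequence and the 3' UTR. All coding windows of H2afz and 87.5% of those of H3f3a are shared, and none of H2afv or Cenpa.

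Few genes that place, remove or read these histones differed by 1.5-fold. The shares of all measured genes to read the counts against, not matched for depth, are 8.95% apart and 21.8% beyond counting error. Of 19 genes of the SRCAP and TIP60 complexes that deposit H2A.Z, 0 were apart, 2 were lower and 3 higher beyond counting error, and the median log2 ratio was 0.02. The furthest from 0 were Ing3, a TIP60 subunit gene, at 0.31 (0.07 to 0.55), and Yeats4, a subunit gene common to both complexes, at 0.26 (0.13 to 0.40). Of 12 genes for INO80 subunits and the H2A.Z chaperone ANP32E, 0 were apart, 1 was lower and 2 were higher beyond counting error, with a median of -0.03. Ino80c was at 0.31 (0.05 to 0.58), Ino80d at -0.16 (-0.31 to -0.02) and Anp32e at 0.14 (0.05 to 0.23).

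Of 10 genes for H3.3 deposition 0 were apart, 1 was lower and 1 higher beyond counting error, the median was 0.05, and the furthest was the histone chaperone gene Asf1b at -0.25 (-0.63 to 0.13). Dek, an H3.3 chaperone gene, was at 0.16 (0.06 to 0.26). Of 17 genes for CENP-A loading and the centromere, 1 was apart: Cenpw, a gene of the inner kinetochore, with 64 and 40 reads, was at -0.73 (-1.34 to -0.14). Oip5, which encodes a CENP-A loading factor, was at 0.49 with an interval that spans 0 (-0.06 to 1.06). Both rest on few reads, the list's median was 0.06, and 1 of 17 apart is no more than the 8.95% of all measured genes.

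The lists for H2A.X kinases and readers (17 genes), general histone chaperones (12) and histone mRNA processing (10) had 0 genes apart, with medians of 0.0002, 0.02 and -0.02. Beyond counting error 1, 1 and 1 of their genes were lower and 1, 3 and 2 higher. The chaperone gene Nap1l1, at 0.13 (0.06 to 0.20), and the histone pre-mRNA processing genes Lsm11, at 0.30 (0.12 to 0.48), and Lsm10, at -0.45 (-0.90 to -0.01), were among these. Of the genes whose names mark them as canonical or replication-linked histones, 25 had a row and 6 were measured. Transcripts of most canonical histone genes lack a poly(A) tail, and the labels do not state how RNA was selected for the libraries. Their summed reads were 1082 and 1117, and 0 of the 6 were apart. Hist3h2ba, an H2B gene, had 484 and 506 reads, and Hist1h1c, a linker histone gene, 57 and 77. H1fx, which encodes the linker histone H1.X, with 691 and 894 reads, was at 0.31 (0.17 to 0.46), higher beyond counting error.

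**Figure D5:**
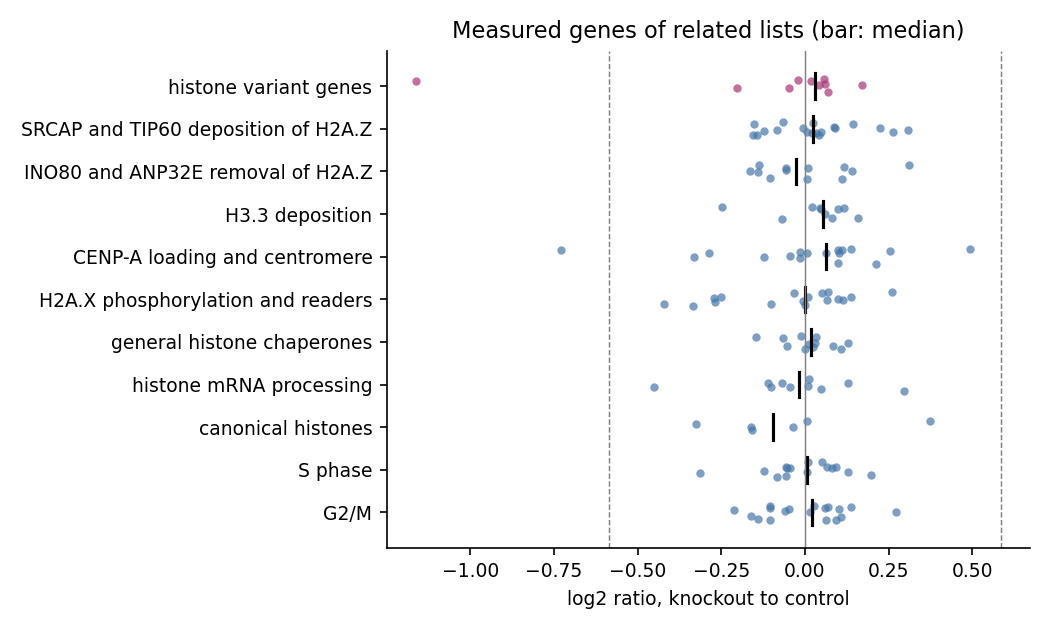
Log2 ratio of knockout to control (horizontal axis) for each measured gene of the histone variants (purple) and of 10 related lists (blue), with the median as a black bar; vertical jitter carries no meaning. H2afz, at -1.16, and Cenpw, at -0.73, are the genes below the dashed 1.5-fold line.

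Markers of the tissues in the libraries were read beside these values. All 12 telencephalic markers had reads in both libraries, and 0 were apart, with a median of -0.08. Of 15 S phase genes and 18 G2/M genes 0 were apart, with medians of 0.0057 and 0.02. Beyond counting error were Rrm2, a ribonucleotide reductase gene, lower at -0.12 (-0.24 to -0.0039), and higher Ccnb1, a mitotic cyclin gene, at 0.27 (0.09 to 0.46) and the topoisomerase gene Top2a at 0.14 (0.07 to 0.21). Choroid plexus and meningeal markers were lower in the knockout library: 9 of 10 and 10 of 11 measured members were apart and lower, and the levels summed over all listed markers went from 818.3 to 25.9 CPM and from 256.7 to 21.7 CPM. Ttr held 6025 of the 7019 choroid plexus reads in the control, and without it the sum went from 115.9 to 24.6 CPM. A single measured choroid plexus marker was apart and higher: Prlr (prolactin receptor), at 7 reads in the control against 14, had a ratio of 0.89 with an interval that spans 0 (-0.46 to 2.49). Of the choroid plexus markers, Calml4 and Kcnj13 had 0 reads in the knockout. Ventral telencephalic markers and markers of the diencephalon, midbrain and hindbrain were mostly higher. Of their measured members 5 of 12 and 7 of 11 were apart and higher, beside 3.52% of all measured genes. Summed levels went from 785.7 to 1134.4 CPM and from 136.6 to 257.6 CPM. Tcf7l2 held 111 of the 1172 control reads of the diencephalic, midbrain and hindbrain list and 1017 of its 2298 knockout reads. In that list 3 measured members had ratios below 0, and 1 was lower beyond counting error. En1 and Shox2 were among its markers with 0 reads in the control. Endothelial and pericyte, microglial and erythroid markers had 0 of 11, 3 of 9 and 1 of 5 apart, all lower. Their summed levels went from 339.1 to 314.8, 64.0 to 47.5 and 236.1 to 193.3 CPM. The erythroid gene apart was Slc4a1, with 18 and 12 reads and an interval that spans 0 (-1.83 to 0.49). Beyond counting error 5, 3 and 3 of the measured markers in these lists were lower and 1, 0 and 0 higher. The part of these tissues in the histone variant values was not tested. In tissue samples such as these, fewer cells of a type and less RNA per cell cannot be told apart.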

How the data were processed

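RNA was sequenced from 1 labelled sample per genotype, with RNA extracted in Trizol and TruSeq libraries, per the labels' protocols. Bowtie2 2.2.3, TopHat2 2.0.12 and HTSeq 0.6.0 are named without roles per the submitters' processing notes, which also name mm9. Gene positions in the deposited table are nevertheless those of GRCm38: 15537 of 19720 (78.8%) are identical to GENCODE M21, as are those of 9 of the 10 members, H1f0 being the exception.

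The authors deposited raw read counts per gene. They also deposited CPM, in which a count of 0 is entered as 0.5 read, the fold of control over knockout CPM, its log2, and a p-value and adjusted p-value whose test is not stated in the labels. Of the listed genes 19616 matched a symbol.

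Counts were scaled with TMM (edgeR 4.0.16, R 4.3.3) over all listed genes, and log2 ratios of knockout to control used a prior of 0.5 read. With 1 library per genotype no test was made. Exact 95% Clopper-Pearson intervals were taken for how a gene's reads divide between the libraries, and take in counting error alone. The calculation was tested on simulated counts. Alternatives were scaling by total reads in genes, DESeq2 1.42.0 size factors, TMM without genes of other tissues, a prior of 5 reads, and read minimums of 0 and 100. Other steps ran in scipy 1.17.1, pandas 2.3.3, numpy 2.4.6 and matplotlib 3.10.9 under Python 3.11.15.

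Named genes are the 10 members, annotated copies of them, up to 4 genes furthest from 0 in each list, and the 5 genes closest in ratio to H2afz among those with 500 reads or more. Tmcc1, Gm26623, Gm8203, Gm17275, Smpd4, Aifm2, Calml4, Kcnj13, Prlr, Top2a, En1 and Shox2, and the 5 genes below H2afz in ratio (Ttr, Col3a1, Col1a2, Sulf1 and Igf2), were named after their values were seen. The members and the 19 gene lists were chosen with earlier results of these data known.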

Additional observations from a re-analysis of the deposited data

How the results depend on the processing

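No paired analysis was possible because each genotype has 1 library. The log2 ratio of H2afz ran from -1.197 with scaling by total reads in genes to -1.139 with DESeq2 size factors. H2afz was the 1 histone variant gene at least 1.5-fold apart under these, with TMM without genes of other tissues and with a prior of 5 reads. The other read minimums could not change this, because each member had at least 451 reads in the sum. With scaling by total reads, 2 histone variant genes in place of 3 were beyond counting error, H3f3b being the one lost. The counts over all genes moved most with the read minimum, as fewer or more genes were tested: 780 lower and 506 higher became 2303 and 1833 with no minimum, and 200 and 165 with at least 100 reads. They also depended on the prior and the scaling. With a prior of 5 reads they were 632 and 374, with scaling by total reads in genes 847 and 450, and with DESeq2 size factors 744 and 533. The share of H2A.Z reads from H2afz, 53.3% in the control and 32.8% in the knockout, was 63.6% and 42.7% per length of the longest coding transcript and 85.4% and 71.4% per unshared 50-base window, both scales chosen after seeing the data. On these scales the log2 ratio of both genes together, -0.46 by reads, was -0.59 and -0.91. Depth limits H2afj most, with 451 reads in the sum. Age, strand and the treatment of reads with several matches are not given or not certain, and there is no replicate error.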
